A study of Rattus norvegicus with 9 samples.

Results

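The enzymes that carry tryptophan through kynurenine towards NAD and glutarate were examined in rat liver as a set of 9 genes, namely Tdo2, Ido1, Ido2, Afmid, Kmo, Kynu, Haao, Acmsd and Qprt. They were taken by symbol from the deposited count and TPM tables, which list 32883 genes, and each symbol matched 1 gene. Of the 9 genes, 8 passed the filter on low counts that 14089 genes passed in all, and Ido1 did not. Bulk RNA-seq had been done on 9 livers, 3 in each of 3 groups. All ACLF livers came from male Sprague-Dawley rats aged 8 to 11 weeks, in which acute-on-chronic liver failure (ACLF) was induced by bile duct ligation for 21 days followed by intraperitoneal lipopolysaccharide (LPS) at 0.25 mg/kg. From 1 h after LPS these rats underwent extracorporeal whole-blood circulation for 2 h, and livers of randomly selected survivors were taken 24 h after LPS. In the empty group the circuit held neither cells nor apheresis beads. In the UTOpiA group it held a granulocyte-monocyte apheresis column and alginate-encapsulated hepatocyte-like cells made from a gene-edited human induced pluripotent stem cell line. The normal livers are labelled only as coming from normal rats, so a difference between the empty group and normal livers covers the ligation, the LPS and the circuit, and these cannot be told apart. Because only survivors were sampled, the ACLF groups do not represent rats that died earlier.

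The liver degrades most dietary tryptophan. Tryptophan 2,3-dioxygenase (Tdo2), an enzyme of hepatocytes, opens the indole ring, and the indoleamine dioxygenases Ido1 and Ido2 perform the same reaction, Ido1 mainly in immune cells and other tissues under interferon gamma. Kynurenine formamidase (Afmid) then releases kynurenine, which is hydroxylated by Kmo, cleaved by Kynu and oxidised by Haao to an unstable semialdehyde. Acmsd sends this semialdehyde towards glutarate and full oxidation, whereas its spontaneous ring closure gives quinolinate, from which Qprt makes the first pyridine nucleotide of de novo NAD synthesis.

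Between 14241172 and 17321677 reads were counted per library. The labelled tissue was checked against hepatocyte markers (Alb, Ttr, Apoa1, Apoc3, Serpina1, Tf, Cps1, Fgb), all of which were detected in every library, with a summed level of 175330 to 192420 TPM in normal livers. In ACLF this sum was 57841 to 86597 TPM (empty group) or 64622 to 85780 TPM (UTOpiA group). In normal livers its largest part was Alb, at a mean of 119230 TPM. The Alb mean was 20100 TPM in the empty group and 23273 TPM with UTOpiA. Fgb and Serpina1 went the other way, from 2560 and 7285 TPM in normal livers to 11636 and 10896 TPM in the empty group. The summed level of 6 cholangiocyte markers was 14.8 to 24.7 TPM in normal livers, 310 to 631 TPM in the empty group, and between 142 and 405 TPM with UTOpiA. In bulk tissue, fewer cells of a type and less RNA per cell cannot be told apart, and the part of this shift in cell markers in the results for the pathway was not tested. The replicate numbers did not pair the livers.

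In normal livers the pathway genes, compared per length, were ordered from Tdo2 at 875 ± 145 TPM (SD, n = 3) through Haao at 315 ± 20.1, Qprt at 187 ± 16.0, Afmid at 150 ± 16.3, Kmo at 115 ± 15.6, Kynu at 91.1 ± 12.0 and Acmsd at 71.6 ± 42.7 to Ido2 at 23.2 ± 8.89. Neighbours in this order had separate ranges except Kmo with Kynu and Kynu with Acmsd. In the empty group the order was the same, but Afmid, Kmo, Kynu and Acmsd each overlapped the next. In the UTOpiA group Acmsd, at 61.0 ± 25.4 TPM, moved ahead of Kynu, Afmid and Kmo, these 4 genes and Ido2 overlapped one another in sequence, and Haao overlapped Qprt. Tdo2 made up 51.6%, 45.5% and 45.9% of the summed TPM of the 9 genes in the 3 normal livers.

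**Figure D1:**
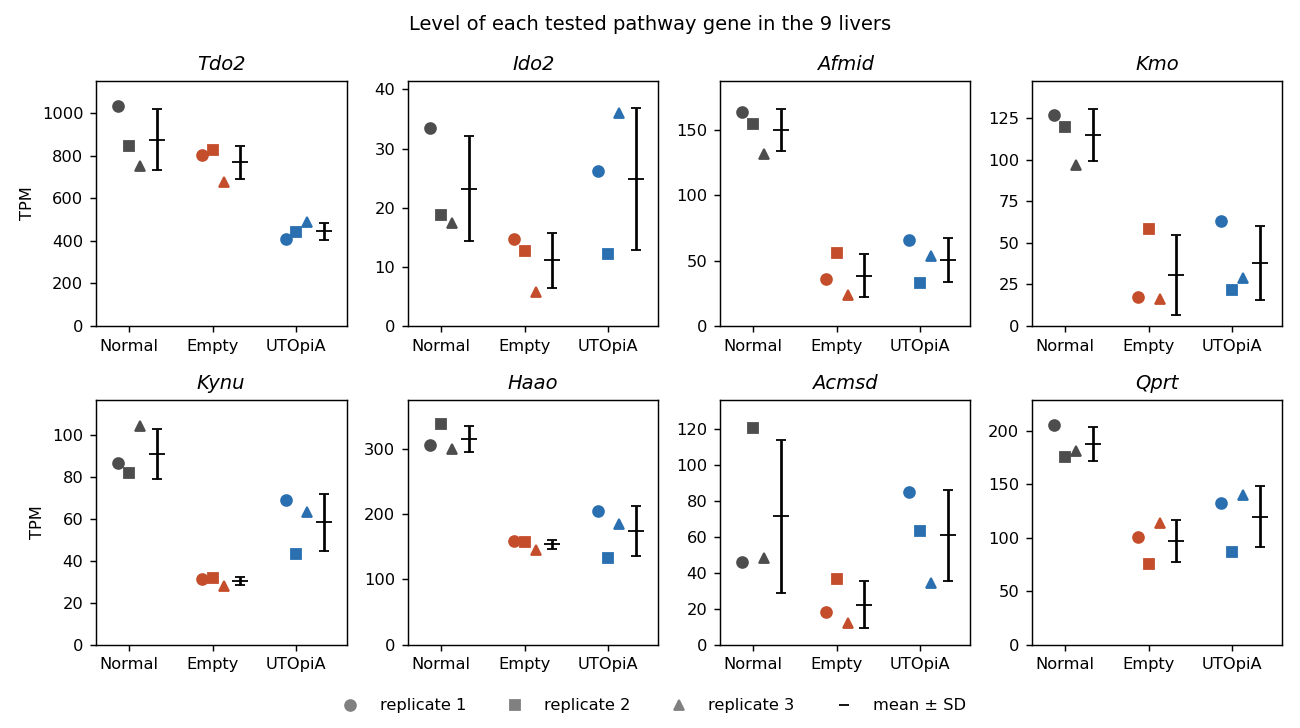
Level in TPM (linear axis from 0) of the 8 tested pathway genes in the 3 normal, 3 empty-group and 3 UTOpiA-group livers. Symbols mark the replicate number and black bars the mean ± SD. In TPM, Tdo2 overlaps between normal livers and the empty group and is lower in every UTOpiA liver (on TMM-scaled log2 CPM it is separate in the first case and overlaps the empty group in the second), whereas Kynu in the UTOpiA group lies between the other groups in every liver.

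Between normal livers and the empty group, 7 of the 8 tested genes fell more than 2-fold at a Benjamini-Hochberg adjusted p under 0.05 (called lower below) and 0 were called higher. Of all 14089 genes tested, 11.1% were called lower and 20.7% higher in this comparison. Over the 8 genes the median log2 fold change was -1.83, against 0.04 over all genes. The gene outside the called set was Tdo2, the entry enzyme. The TPM levels of the other 7 genes in the empty group lay below every normal liver, as did 12.8% of all genes tested.

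Tdo2 (ENSRNOG00000011612, chr2:180897011-180914940, minus strand, positions here and below as in the deposited tables) measured 1034, 843 and 749 TPM in normal livers and 802, 825 and 678 TPM in the empty group. The TPM ranges overlapped, with a single empty-group liver below all normal livers. On TMM-scaled log2 CPM, the scale of the edgeR fit, they did not, at 10.31, 9.99 and 9.86 in normal livers and 9.51, 9.48 and 9.07 in the empty group. Its log2 fold change was -0.70 ± 0.27 (SE), with a 95% interval of -1.30 to -0.10 and an adjusted p of 0.0527. The interval reaches past a 2-fold fall, so a decrease of that size was not resolved by these livers. On log2(TPM + 1) the change of Tdo2 was -0.18, while the median over all genes on that scale was 0.44 in this comparison, -0.17 between the UTOpiA and empty groups and 0.28 between the UTOpiA group and normal livers, so differences in TPM are read against those shifts.

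The other entry enzymes were scarce. Ido1 (ENSRNOG00000031189, chr16:72216326-72228098, plus strand) had 0 reads in 8 libraries and 2 reads in empty-group replicate 3. It stayed at or under the limit of 3 counts per library, which corresponds to 0.173 to 0.211 CPM (counts scaled to library size), so no fold change is given and its presence below that level was not detectable (the limit covers counting error only). Ido2 (ENSRNOG00000025365, chr16:72268943-72289156, plus strand) measured 33.5, 18.8 and 17.5 TPM in normal livers and 14.8, 12.7 and 5.81 TPM in the empty group, with no overlap. It was called lower at a log2 fold change of -1.56 ± 0.57 (adjusted p = 0.0477), and this call was lost in 14 of 25 alternatives, among them the fits without normal replicate 1 (adjusted p = 0.148) and without empty-group replicate 3 (adjusted p = 0.127). Over the 25 alternatives its adjusted p ranged from 0.00141 to 0.148.

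Afmid (ENSRNOG00000050205, chr10:106828981-106844314, plus strand), which hydrolyses formylkynurenine, measured 164, 154 and 132 TPM in normal livers. In the empty group it measured 35.8, 56.1 and 23.7 TPM, well apart from the normal livers. Its log2 fold change of -2.46 ± 0.41 (adjusted p = 0.00139), a 5.51-fold fall, was close to that of Kmo, and the order of these genes turned in other fits, as without empty-group replicate 2 (Afmid -2.84, Kmo -3.29).

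Kmo (ENSRNOG00000003709, chr13:93684437-93716227, plus strand), the mitochondrial hydroxylase that commits kynurenine to the NAD and glutarate branch, measured 127, 120 and 97.1 TPM in normal livers and 17.5, 58.5 and 16.2 TPM in the empty group. The second of these empty-group livers stood far above the others but did not overlap normal livers. The log2 fold change was -2.41 ± 0.59 (adjusted p = 0.00966) and became -3.29 without empty-group replicate 2. Kynu (ENSRNOG00000029993, chr3:28416954-28566928, plus strand), the pyridoxal phosphate-dependent kynureninase, measured 86.6, 82.0 and 105 TPM in normal livers and 31.5, 31.7 and 28.2 TPM in the empty group. It fell by 2.10 ± 0.27 on the log2 scale (adjusted p = 0.000368), and its 3 empty-group livers lay close together. Haao (ENSRNOG00000031263, chr6:7045152-7058314, minus strand), the iron-dependent dioxygenase that opens the ring of hydroxyanthranilate, measured 307, 338 and 301 TPM in normal livers and 159, 157 and 146 TPM in the empty group. Its fall of 1.55 ± 0.26 on the log2 scale (adjusted p = 0.00122) was likewise larger than the spread between livers.

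The branch point enzymes were lower as well. Acmsd (ENSRNOG00000003884, chr13:44424689-44468734, plus strand) measured 45.7, 121 and 48.1 TPM in normal livers and 17.9, 36.7 and 11.8 TPM in the empty group. A single normal liver stood far above the others, and all empty-group livers lay below all normal livers. The log2 fold change was -2.19 ± 0.53 (adjusted p = 0.00907), and it was -1.61 without normal replicate 2 and -2.78 without empty-group replicate 2, the call remaining in both fits. Qprt (ENSRNOG00000016980, chr1:198544262-198559568, minus strand) measured 206, 176 and 181 TPM in normal livers and 101, 74.9 and 114 TPM in the empty group, a fall of 1.48 ± 0.29 on the log2 scale (adjusted p = 0.0027). The log2 ratio of Acmsd to Qprt within a liver was -2.17, -0.54 and -1.91 in normal livers and -2.50, -1.03 and -3.27 in the empty group. These ranges overlapped (difference -0.73, two-sided exact permutation p = 0.4, with 0.1 the smallest p that 3 livers against 3 allow). With a library left out the difference ranged from -1.34 (without empty-group replicate 2) to -0.22 (without empty-group replicate 3 or normal replicate 2).

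**Figure D2:**
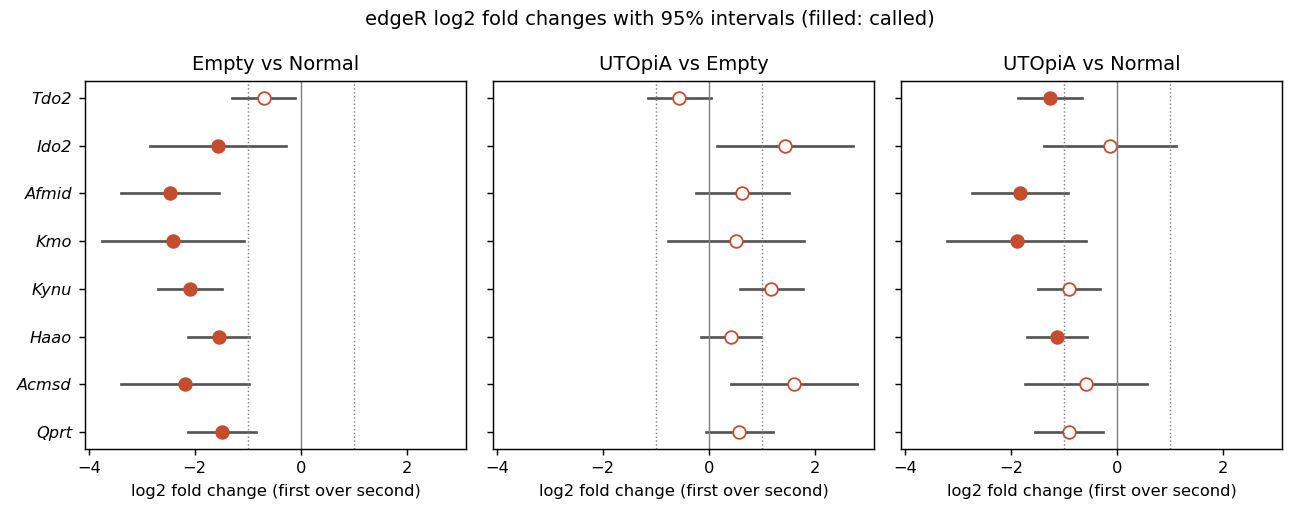
edgeR log2 fold change (dots) with 95% interval (lines) of the 8 tested genes in the 3 comparisons, with the first group named over the second. Filled dots are called, dotted lines mark 2-fold, and 7 genes are called in the left panel, 0 in the middle panel and 4 in the right panel.

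Promoter sequence was looked up for the genes whose levels set the pattern, to show what lies upstream of enzymes that fell together and of Tdo2. Of the 9 genes, 6 matched an entry in the RefSeq promoter table (build GRCr8), and the 250 bases before the annotated start are printed 5′ to 3′ for Tdo2 (chr2:169585587-169585836, minus strand), Kynu (chr3:48188036-48188285, plus strand) and Kmo (chr13:90089271-90089520, plus strand). Capitals mark matches to the motifs searched, and the last base printed lies next to the start.
Tdo2: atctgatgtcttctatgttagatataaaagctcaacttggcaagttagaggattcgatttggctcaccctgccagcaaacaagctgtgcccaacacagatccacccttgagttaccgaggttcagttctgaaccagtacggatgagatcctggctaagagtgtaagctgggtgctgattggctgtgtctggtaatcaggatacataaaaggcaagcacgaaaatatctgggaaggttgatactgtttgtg
Kynu: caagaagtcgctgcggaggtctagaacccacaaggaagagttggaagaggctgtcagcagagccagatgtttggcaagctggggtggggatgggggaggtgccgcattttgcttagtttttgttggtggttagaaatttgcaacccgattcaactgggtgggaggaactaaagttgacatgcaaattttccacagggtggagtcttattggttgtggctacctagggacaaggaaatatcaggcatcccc
Kmo: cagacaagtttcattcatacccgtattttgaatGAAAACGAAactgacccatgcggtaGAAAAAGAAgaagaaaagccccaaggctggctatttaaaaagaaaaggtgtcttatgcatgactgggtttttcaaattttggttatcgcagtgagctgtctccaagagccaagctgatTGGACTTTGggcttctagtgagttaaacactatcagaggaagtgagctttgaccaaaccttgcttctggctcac
Both strands of these windows were searched for CAAAGTCCA (a binding site of HNF4, a hepatocyte transcription factor), GTTAAT (part of the HNF1 site), TTGCNNCAA (C/EBP), GAAANNGAA (interferon-stimulated response), TTCNNNGAA (gamma-activated site) and TGTTCT (part of the glucocorticoid receptor site). Kmo held CAAAGTCCA on the opposite strand 74 to 66 bases before the start, a match present in 0.338% of 33469 promoters of the same length. It also held GAAANNGAA at 217 to 209 and at 192 to 184 bases before the start, and 8.12% of promoters held that motif. Among the other 5 windows the single match was TGTTCT in Haao, 145 to 140 bases before the start, a motif in 17.5% of promoters. The motifs GTTAAT, TTGCNNCAA and TTCNNNGAA, present in 6.45%, 1.75% and 7.67% of promoters, were in 0 of the 6 windows. A match describes the letters only and was not tested as a binding site.

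The routes that leave the pathway were also lower in the empty group. Across all genes tested, 11.1% were called lower in this comparison. All 4 tested aminotransferases that can turn kynurenine into kynurenic acid were called lower, with a median log2 fold change of -1.52, and the one with the largest change was Aadat, the main kynurenine aminotransferase of mitochondria. Aadat measured 244, 266 and 264 TPM in normal livers and 48.2, 89.4 and 28.0 TPM in the empty group (log2 fold change -2.72 ± 0.42, adjusted p = 0.000949). Kyat1, Kyat3 and Got2, which are broader aminotransferases, fell by 1.19, 1.57 and 1.47 on the log2 scale, and Kyat1 was short of 2-fold without empty-group replicate 2 (-0.91). Of the glutarate branch below Acmsd, all 3 genes were called lower, namely the semialdehyde dehydrogenase Aldh8a1 at -1.55 ± 0.33, Dhtkd1 at -2.35 ± 0.52 and glutaryl-CoA dehydrogenase Gcdh at -1.73 ± 0.23 (log2 fold change ± SE).

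In NAD synthesis after Qprt and by salvage, 3 of 7 tested genes were called lower and 1 higher. Over all genes tested the shares were 11.1% lower and 20.7% higher. NAD synthetase Nadsyn1, which finishes the de novo route, measured 19.1, 18.7 and 19.9 TPM in normal livers and 9.39, 10.3 and 9.17 TPM in the empty group (log2 fold change -1.52 ± 0.15, adjusted p = 0.000116). The nicotinate enzyme Naprt and the nicotinamide riboside kinase Nmrk1 were called lower at -1.58 ± 0.25 and -1.85 ± 0.32. The gene called higher was Nnmt, which methylates nicotinamide and so removes it from salvage, at 60.6, 71.5 and 57.9 TPM in normal livers and 207, 170 and 286 TPM in the empty group (log2 fold change 1.27 ± 0.27, adjusted p = 0.00371). Nampt, the rate-limiting salvage enzyme, gave 0.44 ± 0.38 (adjusted p = 0.367), with a value of 195 TPM in empty-group replicate 2 and 82.0 to 96.9 TPM in the others. Nmnat1, the nuclear adenylyltransferase, gave -0.84 ± 0.23 (adjusted p = 0.0139), short of 2-fold.

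**Figure D3:**
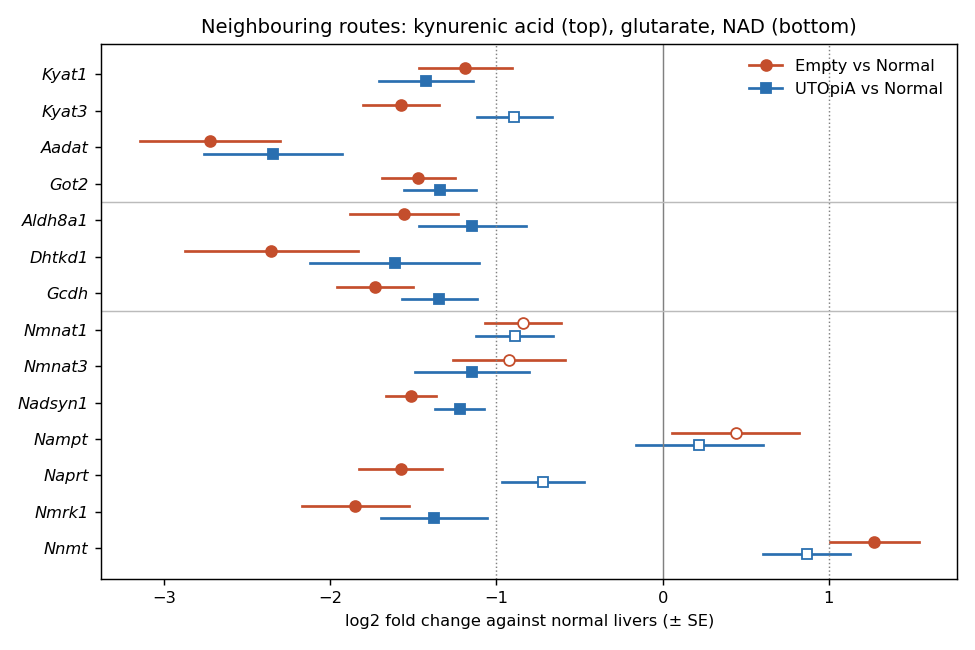
edgeR log2 fold change ± SE against normal livers for the tested genes of the kynurenic acid route (top), the glutarate branch (middle) and NAD synthesis and salvage (bottom), in the empty group (circles) and the UTOpiA group (squares). Filled symbols are called and dotted lines mark 2-fold, and Nnmt is the single gene called higher, in the empty group.

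Of 6 tested genes that use tryptophan or its amines outside the kynurenine pathway, 4 were called lower and 0 higher (median -1.87 on the log2 scale). For this and the lists below, 11.1% of all genes tested were called lower and 20.7% higher. The aromatic amino acid decarboxylase Ddc gave a log2 fold change of -3.80 ± 0.44, the indolethylamine methyltransferase Inmt -4.12 ± 0.70, and the monoamine oxidases Maob and Maoa -2.27 ± 0.37 and -1.47 ± 0.15. The genes not called were the tryptophanyl-tRNA synthetase Wars1, at 13.4 to 15.5 TPM in normal livers and 21.1 to 38.3 TPM in the empty group (0.58 ± 0.23, adjusted p = 0.0579, called higher in 3 of 25 alternatives), and the amino acid oxidase Il4i1 (-0.19 ± 0.33). Among 15 tested hepatic enzymes that degrade other amino acids, 10 were called lower and 1 higher, with a median of -1.68. The histidine enzymes Hal and Uroc1 were called lower at -3.74 ± 0.42 and -2.89 ± 0.55, and the cytosolic aspartate aminotransferase Got1 was called higher at 1.31 ± 0.37. The call of Got1 was lost without normal replicate 3 (adjusted p = 0.0597). Of the 8 hepatocyte markers, 5 were called lower and 1 higher, the fibrinogen gene Fgb, with a median of -1.33, and the call of Fgb was lost without empty-group replicate 1 or any one normal liver (adjusted p from 0.0526 to 0.0747). The median of the kynurenine pathway genes, -1.83, lay close to that of the other tryptophan routes and below that of the amino acid enzymes and hepatocyte markers, and differences between lists were not tested. All 6 cholangiocyte markers and all 5 tested neutrophil markers were called higher in the same comparison. So were 4 of 5 stellate cell and fibroblast, 5 of 7 macrophage and 3 of 4 T cell markers. Among 4 endothelial markers 1 was called higher and 1 lower, and 0 of 4 tested dendritic cell markers were called.

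Between the UTOpiA group and the empty group, 0 of the 8 tested genes were called in either direction, as were 0% higher and 0% lower of all genes tested with edgeR, whose smallest adjusted p was 0.17. At an unadjusted p under 0.05, 1456 of 14089 genes differed, 5.77% of all genes in the direction of higher levels with UTOpiA, and 3 of the 8 pathway genes were among the higher ones. Over the 8 genes the median log2 fold change was 0.61, against 0.00 over all genes, and 7 had a positive value. The median was 1.12 without empty-group replicate 2, and it was 0.50 with 6 positive values without UTOpiA replicate 1. This comparison and the one above share the empty-group livers.

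Kynu measured 69.1, 43.2 and 63.2 TPM in the UTOpiA group against 31.5, 31.7 and 28.2 TPM in the empty group, with every UTOpiA liver above every empty-group liver in TPM and in TMM-scaled log2 CPM. Of all genes tested, 2.43% were separated in this way in TPM, and Kynu was the single pathway gene among them. Its log2 fold change was 1.19 ± 0.26, with a 95% interval of 0.59 to 1.78, an unadjusted p of 0.00127 and an adjusted p of 0.264. DESeq2 called it higher (log2 fold change 1.16, adjusted p = 0.00852), the single pathway gene among the 0.376% of genes that DESeq2 called higher. That DESeq2 call was lost without empty-group replicate 3 (adjusted p = 0.0983), UTOpiA replicate 1 (adjusted p = 0.164) or UTOpiA replicate 3 (adjusted p = 0.126). Without UTOpiA replicate 2, the lowest of the 3 for Kynu, edgeR called it as well (log2 fold change 1.46, adjusted p = 0.0376) together with 0.223% of all genes. Over its edgeR, DESeq2 and limma alternatives the adjusted p of Kynu ranged from 1.27e-08 to 0.762.

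The genes Acmsd and Ido2 had the largest positive values but also a wide spread. Acmsd measured 85.0, 63.5 and 34.5 TPM in the UTOpiA group, overlapping the 17.9, 36.7 and 11.8 TPM of the empty group in a single liver of each. On TMM-scaled log2 CPM it did not overlap, at 5.56, 4.91 and 4.60 against 3.24, 4.21 and 2.46. Its log2 fold change was 1.61 with a 95% interval of 0.43 to 2.80 (unadjusted p = 0.0135, adjusted p = 0.395). Ido2 measured 26.3, 12.1 and 36.0 TPM in the UTOpiA group, the second value lying within the empty-group range. Its log2 fold change was 1.44 with a 95% interval of 0.16 to 2.72 (unadjusted p = 0.0317, adjusted p = 0.448). DESeq2 without UTOpiA replicate 2 called Kynu and Ido2 higher, with 1.59% of all genes, and without empty-group replicate 2 it called Acmsd, Kmo and Kynu, with 2.43% of all genes. Without empty-group replicate 1 it called Kynu, with 0.541% of all genes. In the other 3 such DESeq2 fits, without empty-group replicate 3, UTOpiA replicate 1 or UTOpiA replicate 3, 0 pathway genes were called.

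Tdo2 was the single pathway gene with a negative value. It measured 407, 440 and 487 TPM in the UTOpiA group, below each of the 802, 825 and 678 TPM of the empty group. On TMM-scaled log2 CPM the groups overlapped, at 8.61, 8.49 and 9.21 with UTOpiA against 9.51, 9.48 and 9.07, so the separation depends on the scaling. On log2(TPM + 1) the change was -0.79. The edgeR log2 fold change was -0.56 with a 95% interval of -1.15 to 0.03 (adjusted p = 0.505), and the two-sided exact permutation test on TPM gave p = 0.1, the smallest it allows. The remaining 4 genes had overlapping ranges. Afmid measured 65.9, 32.8 and 53.7 TPM with UTOpiA (log2 fold change 0.64, 95% interval -0.25 to 1.52), and Kmo 63.4, 21.6 and 28.9 TPM (0.52, -0.77 to 1.80). Haao measured 205, 132 and 186 TPM (0.42, -0.14 to 0.99), and Qprt 132, 86.7 and 140 TPM (0.58, -0.06 to 1.21). These intervals include no difference and, for Afmid, Kmo and Qprt, also a 2-fold increase.

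UTOpiA replicate 2 was the lowest of its group for 6 of the 8 tested genes, and empty-group replicate 3 was the lowest of its group for 7. Empty-group replicate 2 and UTOpiA replicate 1 were each the highest of their group for 5. The summed hepatocyte markers were 64622 TPM in UTOpiA replicate 2 against 85780 and 83265 TPM in the other UTOpiA livers, and its cholangiocyte markers summed to 405 TPM against 201 and 142 TPM. Its Alb level was 13022 TPM against 29936 and 26860 TPM, and Ttr, Apoc3 and Tf were also lowest there. Its Fgb and Serpina1 levels, at 12261 and 14511 TPM, were the highest of the group. In the empty group, replicate 3 had the lowest hepatocyte sum (57841 TPM) and the highest cholangiocyte sum (631 TPM). The part of these marker levels in the pathway values was not tested.

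Ratios of genes within a liver do not depend on the scaling between libraries. The ratio of Tdo2 to Kynu TPM was 11.9, 10.3 and 7.16 in normal livers, 25.4, 26.1 and 24.05 in the empty group, and with UTOpiA 5.89, 10.2 and 7.72. The 3 empty-group livers were thus close to each other and apart from the rest, while UTOpiA and normal livers overlapped. This pair was chosen after the values were seen, so the ratio is a description without a test. Tdo2 made up 68.0%, 65.9% and 66.3% of the summed pathway TPM in the empty group, and 38.6%, 52.9% and 47.3% with UTOpiA. The summed TPM of the 9 genes was 2003, 1853 and 1630 in normal livers, 1179, 1252 and 1023 in the empty group, and with UTOpiA 1055, 832 and 1029.

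The transcripts of Ido1 and Ido2 together, as a percent of their TPM summed with Tdo2, were 3.14%, 2.18% and 2.28% in normal livers. This share was nearly all Ido2, since Ido1 had 0 to 2 reads, and enzyme activity was not measured. The share was 1.81%, 1.51% and 0.875% in the empty group, below every normal liver (two-sided exact permutation p = 0.1, the smallest possible with 3 livers in each group). In the UTOpiA group it was 6.06%, 2.68% and 6.88%, above every empty-group liver (exact permutation p = 0.1) and overlapping the normal livers (exact permutation p = 0.2). The log2 ratio of Acmsd to Qprt was -0.64, -0.45 and -2.02 in the UTOpiA group, overlapping the empty group (difference 1.23, exact permutation p = 0.2) and normal livers (difference 0.50, exact permutation p = 0.6). The difference from the empty group was 1.85 without empty-group replicate 2 and 0.73 without empty-group replicate 3. The difference from normal livers was 1.00 without either UTOpiA replicate 3 or normal replicate 2, and from 0.19 to 0.32 without any one of UTOpiA replicates 1 and 2 and normal replicates 1 and 3.

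**Figure D4:**
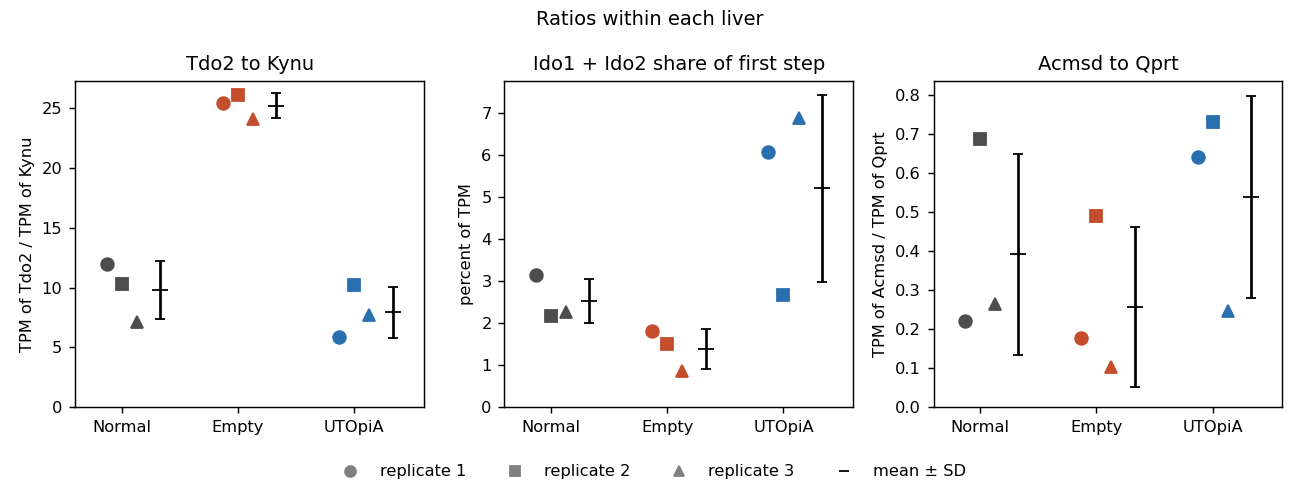
Ratio of Tdo2 to Kynu TPM, percent of first-step TPM from Ido1 and Ido2, and ratio of Acmsd to Qprt TPM in each liver (linear axes from 0), with symbols for the replicate number and black bars for the mean ± SD. The Tdo2 to Kynu ratio is 24.05 to 26.1 in the empty group and 5.89 to 11.9 in the other livers, and the Acmsd to Qprt ratios overlap in all groups.

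Between the UTOpiA group and normal livers, 4 of the 8 genes were called lower and 0 higher, against 6.81% lower and 18.2% higher of all genes tested, with a median log2 fold change of -1.02 for the 8 genes and 0.05 over all genes. This comparison shares its normal livers with the first and its UTOpiA livers with the second. Every UTOpiA liver lay below every normal liver for 6 of the 8 genes, as for 13.4% of all genes. The called genes were Tdo2 at -1.26 ± 0.27 (adjusted p = 0.00573), Afmid at -1.83 ± 0.40 (adjusted p = 0.00705), Kmo at -1.89 ± 0.58 (adjusted p = 0.0307) and Haao at -1.12 ± 0.25 (adjusted p = 0.00744). Kynu and Qprt stood at 53.2% and 53.4% of the normal level by the fit (adjusted p = 0.0212 and 0.031), short of the 2-fold threshold. Without UTOpiA replicate 3 both were called lower (-1.14 and -1.22), and Kynu also without UTOpiA replicate 1 (-1.01). Acmsd at -0.58 (95% interval -1.73 to 0.57) and Ido2 at -0.12 (95% interval -1.37 to 1.13) overlapped normal livers, with intervals that still include a 2-fold fall. The call for Kmo was lost without any one of UTOpiA replicates 2 and 3 and normal replicates 1, 2 and 3 (adjusted p from 0.0548 to 0.0948), and that for Haao was lost to the fold threshold without UTOpiA replicate 2 (log2 fold change -0.87). With limma on log2 TPM values, in all 3 versions tried, Tdo2 at -0.97 and Haao at -0.87 to -0.88 also fell short of 2-fold.

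In this comparison the aminotransferases Kyat1, Aadat and Got2 were called lower and Kyat3 gave -0.89 ± 0.22, short of 2-fold except without UTOpiA replicate 1 (-1.05). All 3 genes of the glutarate branch were called lower, as were 3 of 7 NAD genes, namely Nadsyn1 at -1.22 ± 0.15, Nmrk1 at -1.38 ± 0.32 and the mitochondrial adenylyltransferase Nmnat3 at -1.15 ± 0.34. Over all genes tested, 6.81% were called lower. Nnmt gave 0.87 ± 0.26 (adjusted p = 0.0267), short of 2-fold, but was called higher in 7 of 25 alternatives, including those without UTOpiA replicate 1 or 2 (1.02 and 1.01). Some of these calls were lost with a library left out. That of Aldh8a1 was lost in 8 of 25 alternatives, including the fits without UTOpiA replicate 2 or any one normal liver (-0.85 to -1.16). That of Dhtkd1 was also lost in 8, including those without UTOpiA replicate 2 or 3 or any one normal liver (-1.24 to -1.82). That of Nmnat3 was lost in 7, including those without UTOpiA replicate 1 or 2 or normal replicate 2 (-0.96 to -1.04). Of the genes in these routes, 0 were called between the UTOpiA and empty groups, where edgeR called 0 of all 14089 genes tested.

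The genes whose pattern over the 9 livers was nearest to each pathway gene were found by the root mean square (RMS) difference of log2 CPM, each gene centred on its own mean. Among the nearest to Haao was Nipsnap1 (0.11), and Qprt lay nearest to Abcc6 (0.11) and to Nags (0.14), the mitochondrial synthase of the urea cycle activator N-acetylglutamate. Afmid lay nearest to Bphl (0.13) and to the bile acid hydroxylase Cyp39a1 (0.15), and Kynu to Hdhd3 (0.16) and Iqcg (0.19). Kmo was nearest to Tas1r2 (0.20) and to Gls2, the liver glutaminase (0.20). Tdo2 was nearest to Eef1akmt4 and Slc17a5 (0.21 each), Ido2 to Il33 (0.37) and Ugp2 (0.38), and Acmsd to Chchd4 (0.45) and Mvd (0.47). Within the pathway, Haao and Qprt were each other's nearest member (0.21), as were Afmid and Kmo (0.33). The nearest member to Tdo2 was Haao at 0.48, and 2027 genes outside the pathway lay nearer. The median distance over all genes was 0.70 for Tdo2 and 0.81 for Haao.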

How the data were processed

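Libraries from 9 liver samples were poly(A)-selected. The paper names the MGIEasy directional kit, Cutadapt, HISAT2, featureCounts and the mouse build GRCm38, whereas the labels name NEBNext and the submitters' processing notes list Trimmomatic, HISAT2, featureCounts and rn6. Whether counting used strand is not given in the sources used here, so overlapping genes may share reads. The authors deposited raw counts per gene and TPM, scaled by gene length within each library. Labels gave group and replicate.

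Counts were fitted with edgeR 4.0.16 (filterByExpr, TMM, robust quasi-likelihood, all 9 libraries, two-sided). A call needed a fold over 2 and p under 0.05 after Benjamini-Hochberg adjustment across all genes. Alternatives used DESeq2 1.42.0 and limma 3.58.1 on log2(TPM + 1) or log2(TPM + 0.1). TMM factors ran from 0.80 to 1.32. The fits were tested on simulated data. The labels call the samples of a group biological replicates, without naming animals. Replicates differed by more than counting noise (chi-square per degree of freedom at least 17.8). The largest values were 226 and 176, for empty-group replicate 2 against replicates 1 and 3, which gave 46.8 between them. Same-numbered livers of different groups deviated with r of -0.18 to 0.06, so numbers were not used as pairs.

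The members, lists, motifs and tests were chosen with earlier results of these data known. Genes named are the members, 10 neighbouring enzymes, the called genes of each list with the largest change between the empty group and normal livers (up to 2 in each direction), and the 2 nearest in pattern to each member (placeholder symbols left out). Genes named beyond these were chosen after their values were seen. Some items are not reported here.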

Additional observations from a re-analysis of the deposited data

How the results depend on the processing

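With 3 livers in each group, differences near 2-fold in the variable genes (Ido2, Kmo, Acmsd) were not resolved. Ido1 stayed under the limit of 3 counts, and the effect of depth on the other genes was not tested. Gene counts and pathway genes were recomputed under 25 alternatives, and ratios and shares under 7 or 8. Recomputing genes named outside the naming rule was added after seeing the data. Between the empty group and normal livers 5 to 7 genes were called lower, and 6 to 7 with a library left out. With the replicate number as a block, 6 were called lower (Ido2 lost, adjusted p = 0.0713), and between the UTOpiA group and normal livers 3 instead of 4 (Kmo lost, adjusted p = 0.0532). The block changed no call between the UTOpiA and empty groups, where 0 genes were called. Qprt was not called on log2(TPM + 1), log2(TPM + 0.1) or log2(TPM + 1) without a filter, at changes of -0.97 to -0.98.

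Genes called higher with UTOpiA than in the empty group numbered 0 with edgeR, 1 with DESeq2, 0 to 1 with edgeR and a library left out, and with DESeq2 1 without empty-group replicate 1, 3 without empty-group replicate 2, 2 without UTOpiA replicate 2 and 0 without any one of the 3 other libraries of these groups (0.376%, 0.541%, 2.43% and 1.59% of all genes in the 4 DESeq2 fits with a call). Genes called lower with UTOpiA than in normal livers numbered 4, but 2 with limma on log2(TPM + 1) or log2(TPM + 0.1), 1 without its filter, and with a library left out 2 to 5 by edgeR (2 without UTOpiA replicate 2) and 3 to 6 by DESeq2. For the alternative fits against normal livers, here and above, the shares of all genes called are not given. The changes in number between those fits are therefore not read as a result about the pathway genes. The cause of these moves was not tested.

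Signs turned for some values that edgeR did not call on all libraries (log2 fold changes below, with the range over fits that left out a library). Kmo, UTOpiA against empty group, was -0.0096 to 1.40, and -0.024 with DESeq2 without UTOpiA replicate 1. Ido2, UTOpiA against normal, was 0.023 and 0.020 with limma on log2(TPM + 1) and log2(TPM + 0.1), and -0.71 to 0.28 with a library left out (0.24 without normal replicate 1, and 0.26 with DESeq2 without UTOpiA replicate 2). Acmsd, UTOpiA against normal, was -0.90 to 0.0091, the last without normal replicate 2. Nampt, empty group against normal, was -0.055 to 0.70, and -0.037 with DESeq2, both negative values without empty-group replicate 2. Tat, empty group against normal, was -0.43 to 0.18, and 0.48 with limma, 0.062 with 10 counts in every library, and with DESeq2 0.15 and 0.12 without empty-group replicates 1 and 3. Il4i1 there was -0.44 to 0.030, and 0.25 and 0.35 with limma on log2(TPM + 1) and log2(TPM + 0.1). The Tdo2 share of summed TPM, added after seeing the data with its alternatives, was 1.42 percentage points lower with UTOpiA than in normal livers, with a range from -4.71 to 2.41 when a library was left out and 0.59 on CPM.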

Other observations

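Genes that regulate or respond to the pathway were looked at in the empty group against normal livers. Across all genes tested in this comparison, 20.7% were called higher and 11.1% lower. Of 9 tested interferon gamma response genes, which mark the signal that induces Ido1 in other cells, 7 were called higher, and Cxcl11 was called lower. Cxcl9 measured 16.4, 16.0 and 18.0 TPM in normal livers and 460, 15.1 and 629 TPM in the empty group, so its call (log2 fold change 3.91 ± 1.04, adjusted p = 0.0138) came with an empty-group liver at the normal level, and was lost with limma on log2(TPM + 1) without a filter (adjusted p = 0.0737). In the liver with low Cxcl9, Cxcl10 stood at 79.5 TPM against 2.83 and 11.1 TPM in the others. Cxcl10 was called higher (log2 fold change 3.69, adjusted p = 0.0266), but not in 9 of 24 alternatives, and without that liver, empty-group replicate 2, its log2 fold change was 1.45 (adjusted p = 0.0977). Ido1 had 0 to 2 reads in these same livers.

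Glucocorticoids induce Tdo2 in liver, and among 6 genes for their receptor and its targets 1 was called higher, the gluconeogenic gene Pck1 (3.10 ± 0.55, adjusted p = 0.00181). For this and the lists below, the shares called over all genes tested were 20.7% higher and 11.1% lower. Fkbp5 (0.92 ± 0.29, adjusted p = 0.0267), Per1 (0.94 ± 0.26, adjusted p = 0.0133) and Tsc22d3 (0.47 ± 0.17, adjusted p = 0.0475) were short of 2-fold. Per1 was called higher in 10 of 25 alternatives (including those without normal replicate 2 and without empty-group replicate 1 or 3) and Fkbp5 in 7 (including those without empty-group replicate 3), while Tsc22d3 passed in 1, which dropped the fold threshold. Tat, another classical target, gave -0.04 ± 0.36, and the receptor gene Nr3c1 gave -0.54 ± 0.19 (adjusted p = 0.0414). Of 7 tested genes of the aryl hydrocarbon receptor, which binds kynurenine and related metabolites, Cyp1b1 was called higher (6.63 ± 0.44) and Cyp1a2 lower (-2.53 ± 0.78, the call lost without normal replicate 1 and without empty-group replicate 1), while the receptor gene Ahr gave 0.86 ± 0.18, short of 2-fold but called higher in 4 of 25 alternatives. Of 5 tested tryptophan carriers, Slc7a8 was called higher (3.15 ± 0.52) and Slc7a5 lower (-1.07 ± 0.29), the latter call lost in 7 of 25 alternatives, including those without normal replicate 2 and without empty-group replicate 1. Of 8 tested NAD-consuming enzymes, the ectoenzymes Cd38 and Bst1 were called higher (1.97 ± 0.24 and 4.45 ± 0.99) and Sirt5 and Parp14 lower (-1.01 ± 0.15 and -1.24 ± 0.19). The call of Sirt5, close to the 2-fold threshold, was lost in 14 of 25 alternatives, including those without normal replicate 2 or 3 and without empty-group replicate 3 (log2 fold change -0.47 to -1.09 over all). Of these lists, 0 genes were called between the UTOpiA and empty groups by edgeR, as were 0 of all 14089 genes tested.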
